A study of Mus musculus with 4 samples.

Results

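The genes described here encode neuropeptides and other secreted signals, the receptors of these signals, and an enzyme that makes one of them. They are *Trh*, *Crh*, *Grp*, *Vgf*, *Trhr*, *Crhr1*, *Grpr*, *Ptgdr*, *Ackr4* and *Ptgds*, read by 12 of the 39429 gene probes on each array and making up 10 of its 29924 gene names. The genes were chosen by symbol, with their ratios of mutant over control in these data already known, so these ratios, and whether they passed the call rule used for all genes, are given as a description and support nothing. The working name of the group, neuropeptides and changed receptors coupled to G proteins, held for only some of the genes. *Ptgds* encodes an enzyme that makes a lipid signal, *Ackr4* encodes an atypical chemokine receptor that does not act through G proteins, and *Crh* was not measured above background in any pool.

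RNA of E14.5 cochlear ducts from NMRI mice was compared on 4 Agilent arrays, each of which held 1 pool of mutant ducts and 1 pool of control ducts in different dyes. Mutant embryos, called *Sox2-Tbx2LOF*, had the genotype *Sox2*(creERT2);*Tbx2*(fl/fl), in which a tamoxifen-dependent Cre recombinase inserted at one *Sox2* allele can delete the loxP-flanked *Tbx2* in cells that express *Sox2*. Controls are labelled *Tbx2*(fl/n.d.), with the second allele not determined, and the methods call them cre-negative, so that the mutant pools also differed from them by the inserted recombinase. The dams of both groups received 4 mg of tamoxifen by mouth at E12.5, the pools held 23 to 27 ducts, and the spiral ganglion had been removed. The pools were female on arrays 1 and 2 and male on arrays 3 and 4, and Cy5 marked the mutant pool on arrays 1 and 3, Cy3 on the others. The methods' matings for these mutants also bring in a fluorescent Cre reporter, which the labels do not list.

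Neuropeptides are cut from larger precursors, stored in dense-core granules and released to act on receptors that pass the signal to G proteins inside the target cell. Thyrotropin-releasing hormone and corticotropin-releasing hormone are best known from the hypothalamus, where they start the thyroid and stress axes, and receptors of the stress axis are also known from the cochlea. Gastrin-releasing peptide is a bombesin-like peptide of neurons and endocrine cells, and prostaglandin D2 is a lipid that acts on a receptor of the same superfamily.

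Between 69.2% and 72.0% of the probes were well above background in a pool, median spot intensities ran from 263 to 292 in the Cy3 channel and from 496 to 563 in the Cy5 channel, and saturation was seen at 0 spots. The log2 ratio of *Tbx2* was −0.12 ± 0.0982 (SD, n = 4 arrays), below 0 on all 4 arrays, at a probe whose place relative to the loxP sites was not analysed here, and that of *Sox2* was 0.01 ± 0.181. A probe for *Esr1*, part of which is fused to the inserted recombinase, was well above background in 4 of 4 mutant pools and 0 of 4 control pools. Its signal in the mutant exceeded that in the control at least 4.24-fold on average over the arrays. With 4 arrays, the precision of each value is limited by their number. Levels are given as log2 of the background-corrected and normalized signal of a pool, and ratios as the log2 ratio of mutant over control on 1 array. A gene passed the filter on dim probes, and was then tested, if 4 or more of the 8 pools gave a signal well above background at a probe for it. In pooled tissue, fewer cells of a type and less RNA per cell cannot be told apart.

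Each probe reads 60 bases of a transcript. The last 30 bases of 7 of the 12 probes are shown with a short sequence marked. The place of each probe in its transcript was not assigned. Capitals mark AATAAA, the polyadenylation signal near the end of most mRNAs, searched on the strand that the probe carries. It stood in the last 30 bases of 5 of the 12 probes of these genes, against 10.6% of the 39429 gene probes. The probes for *Trh*, *Trhr*, *Vgf*, *Ptgdr* and *Ptgds* thus held it, and the pair of probes for *Crhr1* did not.
Trh: tgttaatctcaatgacAATAAAatatatcc
Trhr: tgtatgtatgagcAATAAAgtatcaaactg
Vgf: tagttttgctaagaAATAAAagtgactatt
Ptgdr: gataaagtgccagatgaatcAATAAAtgtg
Ptgds: tgacaaagaAATAAAagtccaaagcaagtc
Crhr1, brighter probe: taactaagcccttgctcccaggcttggaat
Crhr1, dimmer probe: agtctctgagtgttagcgatgccttgggat

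Promoter sequences of RefSeq (GRCm38.p6, 250 bases before to 50 bases after the transcription start) were found for 6 of the 10 genes. Those of the 4 genes among them with the larger ratios of mutant over control are shown, because the deleted gene encodes a T-box factor that binds DNA. Capitals mark GGTGTG or its reverse complement CACACC, the core of the T-box motif, and TGACG or its reverse complement CGTCA, the shorter element of the cyclic AMP response site, bound by factors that cyclic AMP activates. Both strands were searched. The motifs can share letters where GGTGTG is followed by ACG, which none of the printed promoters holds. The T-box core stood in 19% and the shorter element in 20.8% of 32851 promoters of the same length. The *Ptgdr* promoter held 1 T-box core, and those of *Trh* and *Ackr4* held 1 of the shorter element each. Of the promoters not printed, that of *Ptgds*, whose ratio was near 0, held 2 T-box cores, the most of the 6, and that of *Grpr* held 1 of the shorter element.
Trh, chr6:92244601-92244900, minus strand: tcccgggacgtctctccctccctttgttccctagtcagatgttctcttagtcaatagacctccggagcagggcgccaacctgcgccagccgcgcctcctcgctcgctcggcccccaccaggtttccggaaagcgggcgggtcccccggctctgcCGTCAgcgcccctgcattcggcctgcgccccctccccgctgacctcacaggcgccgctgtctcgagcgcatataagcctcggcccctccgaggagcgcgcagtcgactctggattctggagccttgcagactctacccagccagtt
Ptgdr, chr14:44859326-44859625, minus strand: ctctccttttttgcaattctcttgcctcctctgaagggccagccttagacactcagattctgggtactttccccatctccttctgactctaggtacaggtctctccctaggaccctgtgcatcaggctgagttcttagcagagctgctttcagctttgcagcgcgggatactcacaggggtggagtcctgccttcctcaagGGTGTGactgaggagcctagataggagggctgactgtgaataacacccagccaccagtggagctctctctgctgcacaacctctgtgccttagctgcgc
Ackr4, chr9:104126594-104126893, minus strand: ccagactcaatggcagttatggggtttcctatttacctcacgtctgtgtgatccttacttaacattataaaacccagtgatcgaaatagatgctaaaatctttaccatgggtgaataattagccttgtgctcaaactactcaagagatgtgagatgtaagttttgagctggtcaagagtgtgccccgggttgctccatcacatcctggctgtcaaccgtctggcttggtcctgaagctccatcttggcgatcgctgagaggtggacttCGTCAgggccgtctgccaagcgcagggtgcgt
Crhr1, chr11:104132531-104132830, plus strand: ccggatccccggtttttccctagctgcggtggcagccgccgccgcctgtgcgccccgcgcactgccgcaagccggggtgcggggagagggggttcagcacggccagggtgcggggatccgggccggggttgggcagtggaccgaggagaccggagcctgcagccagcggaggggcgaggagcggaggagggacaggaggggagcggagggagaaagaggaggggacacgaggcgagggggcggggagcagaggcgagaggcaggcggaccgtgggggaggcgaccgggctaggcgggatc

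*Trh* encodes the precursor of thyrotropin-releasing hormone. Its probe is at mm9 chromosome 6, positions 92192061 to 92192120, on the minus strand. The normalized log2 signal was 7.66, 7.72, 8.05 and 7.98 in the control pools of arrays 1 to 4. In the mutant pools it was 7.27, 7.19, 7.04 and 7.12. Every mutant pool lay below every control pool, and the male control pools were the highest. Mutant over control, the log2 ratio was −0.39, −0.54, −1.0 and −0.86, with a mean of −0.70 ± 0.283 (SD, n = 4), which is 1.62-fold lower. The pools of both sexes moved down, the female ones by less on both arrays. Without array 3 the mean was −0.54.

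*Trhr* encodes the receptor of thyrotropin-releasing hormone, which acts through Gq and phospholipase C. Its probe is at mm9 chromosome 15, positions 44067399 to 44067458, on the plus strand. The log2 signal was 8.01, 8.06, 8.21 and 8.51 in the control pools and 6.95, 7.11, 7.0 and 7.04 in the mutant pools. The 4 mutant pools lay within a narrow range below all control pools. Over the arrays, the log2 ratio was −1.06, −0.95, −1.21 and −1.47, with a mean of −1.17 ± 0.228 (SD, n = 4), or 2.26-fold lower. This was the 7th lowest ratio of the 21042 genes tested with the offset of 50 in the background correction.

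Set beside each other on the same arrays, the ratio of the receptor lay below that of its ligand on all 4 arrays. The mutant spots of both were dim, at 1.87 to 3.14 times their local background for *Trh* and 1.76 to 2.84 times for *Trhr*. With an offset of 10 the mean log2 ratio was −0.91 for *Trh* and −1.51 for *Trhr*. The size of their difference thus depended on the processing. The difference, *Trhr* minus *Trh* in log2 ratio, was −0.67, −0.41, −0.21 and −0.61, with a mean of −0.48 ± 0.21 (SD, n = 4). Other genes of this system were listed with it: *Tshb*, the beta chain of thyrotropin, *Tshr*, its receptor, *Trhde* and *Pgpep1*, enzymes that break down the peptide, and *Trhr2*, a second receptor. Of these 5 genes, 4 passed the filter on dim probes and 0 were called, that is, had an adjusted p below 0.05 in limma (Benjamini-Hochberg, over all genes) and a fold of at least 1.5. Without the minimum fold, 1 of them passed the limma test, *Tshb* with a log2 ratio of −0.22 ± 0.064 (SD, n = 4; adjusted p = 0.0184). The log2 ratios of *Trhde*, *Tshr* and *Pgpep1* were −0.16, −0.05 and 0.05.

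**Figure D1:**
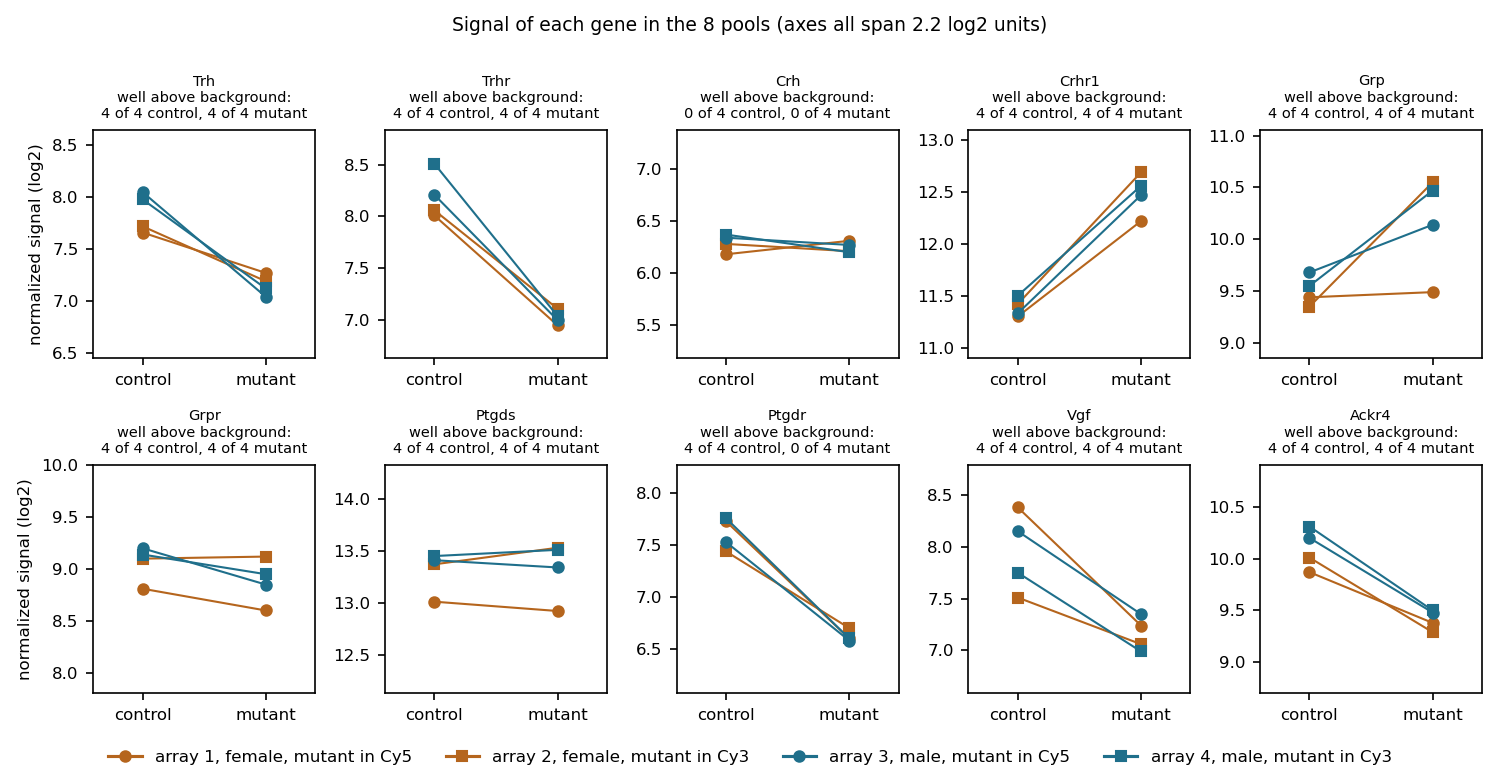
Normalized log2 signal (vertical axes, each spanning the same width) of each gene in the control and the mutant pool, with a line joining the pools of 1 array. Signals of *Trh*, *Trhr*, *Ptgdr*, *Vgf* and *Ackr4* were lower in every mutant pool than in every control pool, those of *Crhr1* higher, and those of the other 4 genes overlapped.

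*Crh* encodes corticotropin-releasing hormone. Its probe on chromosome 3 of mm9, from 19593482 to 19593541 on the minus strand, was not well above background in any of the 8 pools. The brightness of its spots was between 1.00 and 1.38 times their local background. The log2 signal lay between 6.18 and 6.37 in the control pools and between 6.20 and 6.31 in the mutant pools. These ranges overlapped, and since both are at background neither a level nor a fold is read from them.

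*Crhr1* encodes the main receptor of corticotropin-releasing hormone, which couples to Gs and raises cyclic AMP. It was read by 2 probes on chromosome 11 of mm9, the brighter one from 104036691 to 104036750 and the dimmer one from 104036182 to 104036241, both on the plus strand. The brighter probe had log2 signals of 11.30, 11.42, 11.33 and 11.50 in the control pools and 12.22, 12.69, 12.47 and 12.56 in the mutant pools. All mutant pools lay above all control pools. Ratios on the log2 scale were 0.91, 1.27, 1.14 and 1.05, with a mean of 1.09 ± 0.148 (SD, n = 4), or 2.13-fold higher, the 5th highest of the 21042 genes tested. At the dimmer probe the log2 ratio was 0.82, 0.86, 1.15 and 0.86, with a mean of 0.92 ± 0.153 (SD, n = 4), and its pools did not overlap either. The probes thus moved the same way on every array.

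The other genes of the stress axis that were listed are *Crhr2*, a second receptor, *Crhbp*, the binding protein of the peptide, *Pomc*, the precursor of corticotropin, the steroid receptors *Nr3c1* and *Nr3c2*, the cortisone reductase *Hsd11b1*, the urocortins *Ucn*, *Ucn2* and *Ucn3*, and *Mc2r* and *Mrap*, the corticotropin receptor and its accessory protein. Of these 11 genes, 6 passed the filter and 0 were called or passed the limma test without the minimum fold. Their log2 ratios lay between −0.04 and 0.01, with a median of 0.005. The ligands *Ucn*, *Ucn2* and *Ucn3* were among the genes that did not pass the filter.

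*Grp* encodes gastrin-releasing peptide. Its probe is at mm9 chromosome 18, positions 66046107 to 66046166, on the plus strand. The log2 signal was 9.44, 9.35, 9.68 and 9.55 in the control pools and 9.49, 10.55, 10.14 and 10.47 in the mutant pools. The mutant pool was above its control on each array, but that of array 1 lay within the range of the control pools, so the groups overlapped. The log2 ratio was 0.05, 1.20, 0.46 and 0.91, with a mean of 0.66 ± 0.509 (SD, n = 4), or 1.58-fold higher. As for *Trh* and *Vgf* (SD 0.283 each), the spread of *Grp* over the arrays was above the 95th percentile of all genes, 0.265. The mean was 1.06 where the mutant pool carried Cy3 and 0.25 where it carried Cy5. The mean of 0.66 holds 2 arrays of each dye direction and was the same without the dye term in the fit, where the gene was not called. Without array 2 the mean was 0.58 and without array 3 it was 0.55.

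*Grpr* encodes the receptor of gastrin-releasing peptide, which couples to Gq. Its probe lies at positions 159952638 to 159952697 of the mm9 X chromosome, on the minus strand. The log2 signal was 8.81, 9.10, 9.20 and 9.14 in the control pools and 8.60, 9.12, 8.85 and 8.95 in the mutant pools. The pools overlapped, and both pools of array 1 were the lowest of their groups. The log2 ratio was −0.21, 0.02, −0.35 and −0.18, with a mean of −0.18 ± 0.152 (SD, n = 4), below 0 on 3 arrays. The difference of receptor minus ligand in log2 ratio was −0.26, −1.18, −0.81 and −1.1, with a mean of −0.84 ± 0.42 (SD, n = 4). Ligand and receptor thus had ratios on opposite sides of 0 on 3 of 4 arrays. Of the related genes listed, *Nmb* and *Nmbr*, neuromedin B and its receptor, had log2 ratios of −0.06 and −0.05, and *Brs3*, the third receptor of the family, did not pass the filter. Neither of the 2 tested was called or passed the limma test without the minimum fold.

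*Ptgds* encodes the lipocalin-type synthase that makes prostaglandin D2. Its probe is at mm9 chromosome 2, positions 25322232 to 25322291, on the minus strand. The log2 signal was 13.01, 13.37, 13.41 and 13.45 in the control pools and 12.92, 13.53, 13.34 and 13.51 in the mutant pools. The groups overlapped almost fully, with both pools of array 1 the lowest. On the log2 scale the ratio was −0.08, 0.16, −0.07 and 0.07, with a mean of 0.02 ± 0.116 (SD, n = 4), above 0 on both arrays with the mutant in Cy3 and below 0 on both arrays with the mutant in Cy5.

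*Ptgdr* encodes the DP1 receptor of prostaglandin D2, which couples to Gs. Its probe is at mm9 chromosome 14, positions 45470921 to 45470980, on the minus strand, and between 2 and 4 of its spots were used on an array. The log2 signal was 7.73, 7.44, 7.53 and 7.76 in the control pools and 6.60, 6.70, 6.58 and 6.60 in the mutant pools. It was well above background in 4 of 4 control pools and 0 of 4 mutant pools, so the mutant level is known only as a limit, and the gene passed the filter through the control pools alone. On average over the arrays and at the settings reported, *Ptgdr* was at least 1.99-fold lower in the mutant. This bound compares the mean log2 signal of the bright group with, on each array, either the dim probe's own signal or the lowest signal of any probe well above background, whichever was higher. The measured log2 ratio was −1.13, −0.74, −0.95 and −1.16, with a mean of −1.0 ± 0.194 (SD, n = 4). The bound of 1.99-fold is the fold of this mean, so it leaves no margin for the spread over the arrays. With median centring the mean log2 ratio was −0.95, and without array 4 it was −0.89.

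The measured ratio of *Ptgdr* lay below that of *Ptgds* on all 4 arrays. Since the mutant level of *Ptgdr* is only a limit, the measured mean difference of −1.02 ± 0.16 (SD, n = 4) is not the size of the true one. Of 20 other listed genes for prostaglandin synthesis, transport and reception, 17 passed the filter and 0 were called. Without the minimum fold, limma called 1 higher and 2 lower. *Ptgir*, the receptor of prostacyclin, had a log2 ratio of −0.38 ± 0.34 (SD, n = 4; adjusted p = 0.00162 from limma), *Ptger4*, a receptor of prostaglandin E2, −0.16 (adjusted p = 0.0383 from limma), and *Ptgis*, the prostacyclin synthase, 0.17 (adjusted p = 0.0414 from limma). The ratio of *Ptgir* was −0.59 and −0.76 on arrays 1 and 3, with the mutant in Cy5, and −0.11 and −0.08 on the others. That of *Ptgis* was 0.29 and 0.28 on arrays 1 and 3 and −0.01 and 0.11 on the others. The median over the 17 was −0.04, against 0.0024 over all genes tested. *Ptgdr2*, the other receptor of prostaglandin D2, did not pass the filter.

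**Figure D2:**
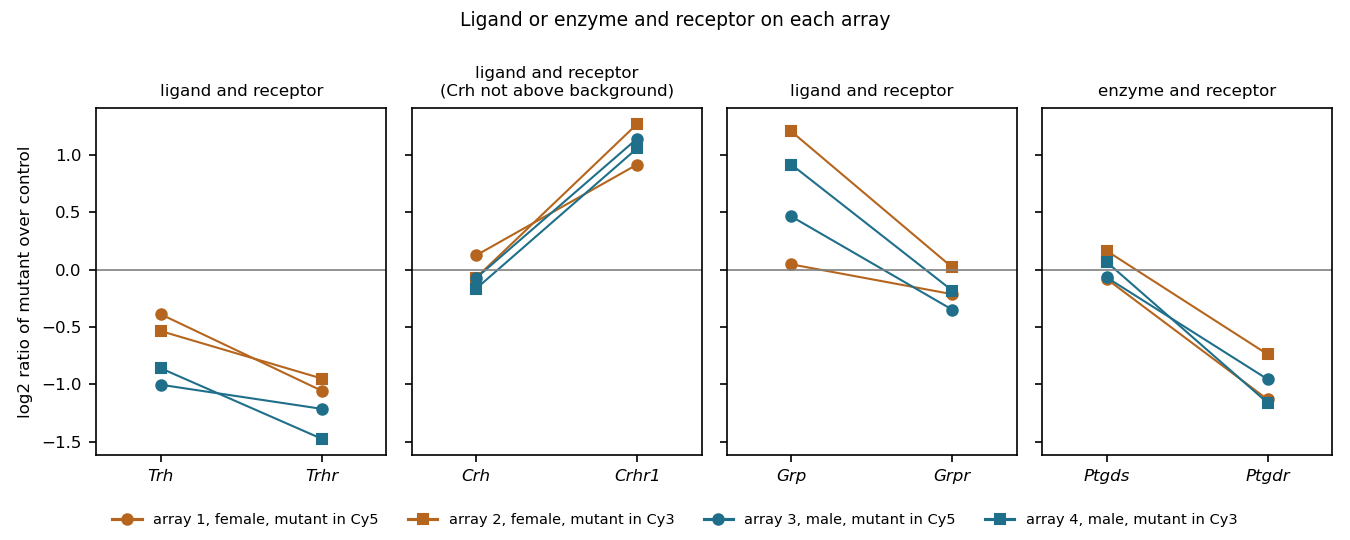
Log2 ratio of mutant over control (vertical axis) of each ligand or enzyme and of its receptor, with a line for each of the 4 arrays. The line fell from ligand or enzyme to receptor on every array for *Trh* and *Trhr*, *Grp* and *Grpr*, and *Ptgds* and *Ptgdr*. Points of *Crh* are at background, so no difference from *Crhr1* is read.

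*Vgf* encodes a secreted protein of the granin family, found in dense-core granules of neurons and endocrine cells and cut into several peptides. Its probe is at mm9 chromosome 5, positions 137509153 to 137509212, on the plus strand. The log2 signal was 8.38, 7.51, 8.15 and 7.75 in the control pools and 7.24, 7.06, 7.35 and 6.99 in the mutant pools. The groups did not overlap, and the control pools of arrays 1 and 3 were the highest. The log2 ratio was −1.15, −0.46, −0.80 and −0.75, with a mean of −0.79 ± 0.283 (SD, n = 4), or 1.73-fold lower. The mean was −0.97 with the mutant in Cy5 and −0.60 with the mutant in Cy3.

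*Ackr4* encodes an atypical receptor that takes up and degrades the chemokines CCL19, CCL21 and CCL25. It was read by 2 probes on chromosome 9 of mm9, the brighter one from 104000628 to 104000688 and the dimmer one from 104000864 to 104000923, both on the minus strand. At the brighter probe the log2 signal was 9.87, 10.01, 10.20 and 10.31 in the control pools and 9.38, 9.29, 9.48 and 9.50 in the mutant pools. The groups did not overlap. The log2 ratio was −0.49, −0.72, −0.72 and −0.81, with a mean of −0.68 ± 0.14 (SD, n = 4), or 1.61-fold lower. The dimmer probe had ratios of −0.55, −0.43, −0.52 and −0.42, with a mean of −0.48 ± 0.0651 (SD, n = 4), or 1.4-fold lower, also without overlap. Of 15 listed relatives, ligands and chemokine receptors with their ligands, 10 passed the filter and 0 were called or passed the limma test without the minimum fold. Among them, the ligands *Ccl25* and *Ccl19* had log2 ratios of −0.11 and 0.08, and the atypical receptors *Ackr1*, *Ackr2* and *Ackr3* had −0.06, 0.04 and −0.06.

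By the same call rule, 5 of the 9 genes that passed the filter were lower in the mutant, *Trh*, *Trhr*, *Ptgdr*, *Vgf* and *Ackr4*, against 0.309% of all genes tested, and 2 were higher, *Crhr1* and *Grp*, against 0.133%. Since the genes were chosen on this contrast, nothing is read from these shares. Without array 3, *Trh* and *Grp* no longer reached the call, and neither did *Grp* without array 2. The smallest mean ratio called was that of *Grp*, at 0.66, and the nearest one not called was that of *Grpr*, at −0.18. Pools did not overlap for 6 of the 9, against 1.74% of all genes with the mutant pools above and 2.54% with them below. Repeated spots of a probe on 1 array had a median SD between 0.0222 for the brighter *Crhr1* probe and 0.148 for *Trhr*, on the log2 ratio scale. Over the arrays, the SD of the log2 ratio of all genes had a median of 0.104, and the middle 90% of their mean ratios lay between −0.145 and 0.139.

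**Figure D3:**
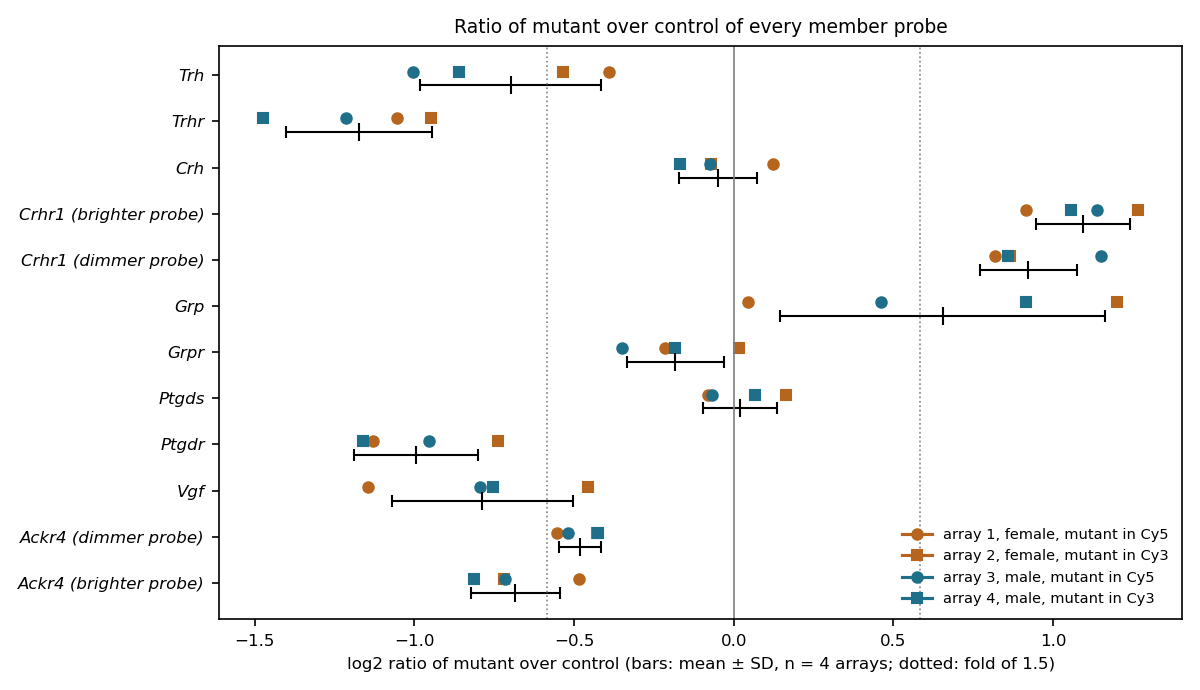
Log2 ratio of mutant over control (horizontal axis) of all 12 probes, with a point for each array, and the mean and SD over the 4 arrays as a bar under the points. Points of *Trhr* were below −0.9 and those of both *Crhr1* probes above 0.8, those of *Grp* ran from 0.05 to 1.20, and those of *Crh*, *Grpr* and *Ptgds* lay around 0.

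The difference between the sexes in the response to the mutation was a measure that the choice of genes had not used. The log2 ratio of *Trh* was −0.46 in the female and −0.93 in the male pools, and the difference of 0.47 (SE 0.095) had an adjusted p of 1 over all genes in limma. For *Trhr* the means were −1.0 and −1.34, and the difference of 0.34 (SE 0.10) had an adjusted p of 1 in limma. Both lay lower in the male pools and had unadjusted p values below 0.05, as 2.65% of the 21042 genes did, but neither passed the test over all genes, which 0% passed. With median centring in place of loess, the adjusted p of *Trh* in limma was 0.074, the lowest over 7 other ways of making the values or choosing the probes. The other 7 genes had unadjusted p values above 0.05.

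The level over both genotypes, female minus male, was tested on the 8 separate channels with the array as a random block. That of *Ackr4* was lower by 0.23 in the female pools (SE 0.078), with log2 means of 9.64 and 9.87, and its adjusted p in limma was 1. Its unadjusted p was below 0.05, those of the other 8 genes were above 0.05, and every adjusted p was 1. Of all genes, 0.0618% passed this test after adjustment and 3.36% had an unadjusted p below 0.05.

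Genes outside the group were compared with it through lists of peptide precursors, peptide processing, granins, receptors coupled to G proteins and their G proteins and effectors. Of 526 listed genes outside the group, the lists above included, 333 passed the filter. The limma test with the minimum fold called 8 of them lower and 0 higher, which is 2.40%, against 0.442% of all genes in either direction. Without the minimum fold 30 were lower and 12 higher, where 2.92% and 2.26% of all genes were. The median log2 ratio over the 333 was 0, against 0.0024 over all genes tested. The lists were chosen with earlier results of these data known. The shares called, here and for single lists, and the adjusted p values of listed genes are therefore given as a description. Without array 3 the count of 8 became 5, the genes lost being *Edn1*, *Ednrb* and *Uts2b*.

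The granins, which fill dense-core granules, were lower for several members besides *Vgf*. Of 5 tested, 1 was called lower, *Chgb*, which encodes chromogranin B. Its log2 ratio was −1.24, −0.81, −0.85 and −0.83, with a mean of −0.93 ± 0.209 (SD, n = 4; adjusted p = 0.000189 in limma), and its pools did not overlap. *Chga*, chromogranin A, and *Scg3*, secretogranin 3, passed the limma test without reaching the fold, with log2 ratios of −0.53 ± 0.24 (SD, n = 4; adjusted p = 0.000246) and −0.44 ± 0.22 (SD, n = 4; adjusted p = 0.000803). The ratios of both were further from 0 on arrays 1 and 3, with the mutant in Cy5, than on the others. *Pcsk1n* and *Scg5* had −0.18 and −0.06 and did not pass, and the median over the 5 was −0.44. The median over the 10 neuron markers that passed the filter was −0.38, and the part of neurons in the granin values was not tested. Of 16 tested genes for cutting, amidating and releasing peptides, 0 were called and 1 passed without the minimum fold, *Cadps*, which primes dense-core granules for release, with −0.48 ± 0.30 (SD, n = 4; adjusted p = 0.00174 in limma). The ratio of *Cadps* was also further from 0 on arrays 1 and 3 than on the others. The median over the 16 was −0.05.

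Of 69 listed peptide precursors, 42 passed the filter, of which 4 were called lower, *Chgb*, *Npy*, *Edn1* and *Uts2b*, and 0 higher. That is 9.52%, against 0.442% of all genes in either direction. *Npy*, neuropeptide Y, had a log2 ratio of −0.71, −0.73, −0.76 and −0.79, with a mean of −0.75 ± 0.0341 (SD, n = 4; adjusted p = 6.4e-05 in limma). *Edn1*, the vasoactive peptide endothelin 1, had −0.49, −0.65, −0.64 and −0.64, with a mean of −0.60 ± 0.078 (SD, n = 4; adjusted p = 0.000178 in limma). *Uts2b*, a urotensin-like peptide, stood at the threshold with −0.59 ± 0.132 (SD, n = 4; adjusted p = 0.000676 in limma). The pools of these 4 genes did not overlap, and the median over the 42 precursors was −0.015.

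Of 372 listed receptors coupled to G proteins or of the same superfamily, 212 passed the filter. Of these, 4 were called lower and 0 higher, which is 1.89%, against 0.442% of all genes in either direction. *Gpr17*, a receptor of the glial lineage, had a log2 ratio of −0.82 ± 0.172 (SD, n = 4; adjusted p = 0.000194 in limma). *Adgrg6*, an adhesion receptor that Schwann cells need to form myelin, had −0.65 ± 0.259 (SD, n = 4; adjusted p = 0.000262 in limma). *Celsr3*, an adhesion receptor with cadherin repeats that guides axons, had −0.65 ± 0.254 (SD, n = 4; adjusted p = 0.000478 in limma). With the mutant in Cy5 and in Cy3, the mean was −0.84 and −0.46 for *Celsr3* and −0.85 and −0.44 for *Adgrg6*. For *Gpr17* it was −0.91 and −0.73. *Ednrb*, a receptor of endothelins that neural crest cells carry, had −0.59 ± 0.0983 (SD, n = 4; adjusted p = 0.000359 in limma) at its brighter probe, where the pools did not overlap, and −0.28 ± 0.0885 at its dimmer one, where they did. Without the minimum fold, 19 receptors were lower and 7 higher, where 2.92% and 2.26% of all genes were. The median over the 212 was 0.

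Downstream of the receptors, all 39 listed G protein alpha subunits, arrestins, cyclases, phospholipases and regulators passed the filter, and 0 were called. Without the minimum fold, 1 was higher and 2 were lower in limma. *Gna14*, an alpha subunit of the Gq family, had a log2 ratio of −0.56 ± 0.088 (SD, n = 4; adjusted p = 0.000175 in limma), and *Rgs4*, which shortens signals of Gi and Gq, had 0.55 ± 0.41 (SD, n = 4; adjusted p = 0.00219 in limma). The ratio of *Rgs4* was 0.14 and 0.32 on arrays 1 and 3, with the mutant in Cy5, and 0.7 and 1.05 on the others. The median over the 39 was 0.

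**Figure D4:**
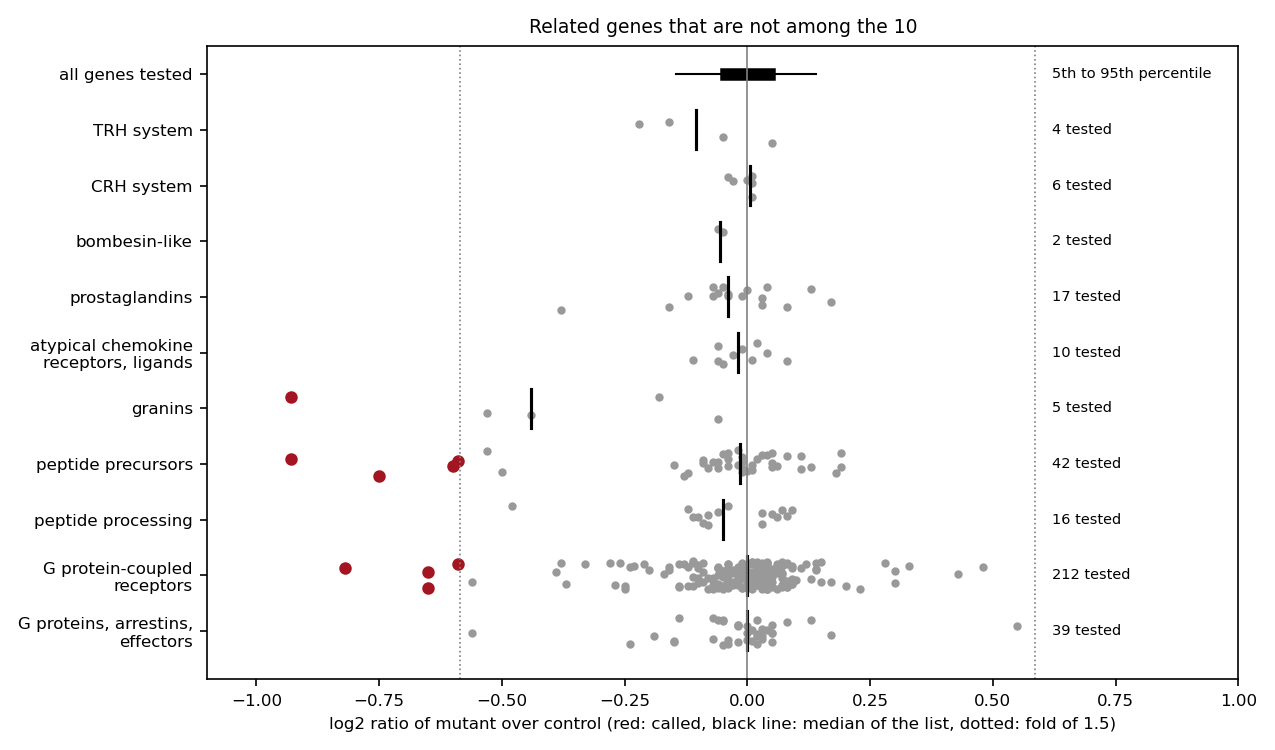
Log2 ratio of mutant over control (horizontal axis) of every tested gene of the lists outside the group, with called genes in red and the median of each list as a black line; the top row gives the 25th to 75th (thick) and 5th to 95th (thin) percentiles of all genes. Called genes stood on the lower side, and the median was −0.44 for the 5 granins and between −0.11 and 0.005 for the other lists shown; the neuron markers, not shown, had −0.38.

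Markers of cell types that the ducts could hold were read beside these values. Of 11 neuron markers 10 passed the filter, 6 were lower and 2 higher on all 4 arrays, as 9.31% and 8.85% of all genes were, and *Elavl3* and *Pou4f1* were called lower with log2 ratios of −1.08 and −0.75. *Neurod1* did not pass the filter. The summed log2 level of these markers was between 15.65 and 15.73 in the control and between 15.64 and 15.82 in the mutant pools, so it overlapped. Of 7 markers of Schwann cell precursors, all of which passed the filter, *Foxd3*, *Fabp7* and *Cdh19* were called lower with −1.17, −1.03 and −0.63, while *Sox10* had 0.01. Their summed level overlapped too, between 17.39 and 17.62 in the control and between 17.37 and 17.58 in the mutant pools. The 6 mesenchyme markers had a summed level between 16.60 and 16.82 in the control and between 16.86 and 17.08 in the mutant pools. *Col1a2* had the highest level of the 6 in every pool and so weighs most in the sum. *Col1a1* had a log2 ratio of 0.27 and passed the limma test without the minimum fold (adjusted p = 0.00448). *Col1a2*, *Twist1*, *Prrx2*, *Tbx18* and *Pou3f4* had 0.28, 0.15, 0.09, 0.04 and −0.05 and did not pass. The part of these cell types in the values of *Trh*, *Trhr*, *Ptgdr*, *Vgf*, *Ackr4*, *Crhr1* and *Grp* was not tested.

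Of the 7 markers of the duct epithelium, 2 were lower and 1 higher on all 4 arrays, none of them called. All of these passed the limma test without the minimum fold. The lower ones were *Lfng*, with a log2 ratio of −0.52 (adjusted p = 0.00031 in limma), and *Jag1*, with −0.19 (adjusted p = 0.0278 in limma). The higher one was *Gata3*, with 0.34 (adjusted p = 0.00929 in limma). The summed level of the 7 was between 17.28 and 17.53 in the control and between 17.50 and 17.64 in the mutant pools. Summed levels of the markers of hair cells, melanocytes, endothelium and macrophages overlapped between the groups, and 0 of the 22 markers in these lists were called, although Myo7a of the hair cell list passed the limma test without the minimum fold. The cochlear duct label thus had its epithelial markers above background in both groups, along with markers of neurons, glia, mesenchyme and blood vessels.

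For 4 of the genes, the tested genes with the most similar ratios were those with the smallest root mean square difference of the log2 ratio over the 4 arrays. For *Trhr* these were *Tmprss4* at 0.19, *Foxd3* at 0.21 and *Smpx* at 0.23. For *Crhr1* they were *Fgfr3* and *Umodl1* at 0.16 each and *Ptpn5* at 0.23. Their mean log2 ratios were 1.11, 1.06 and 0.89. For *Ptgdr* they were *Smpx* at 0.065, *Fgf8* at 0.11 and *Lrrtm1* at 0.15, but the mutant level of *Ptgdr* is only a limit, so these neighbours rest on a bounded ratio. For *Ackr4* they were *Npr3* at 0.027, and *Edn1* and *Prkcq* at 0.10 each. Their mean log2 ratios were −0.69, −0.60 and −0.66, and the measure rests on 4 arrays only.

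Ratios of the dimmer genes depended on how the signals were processed. The offset of 50 added before the logarithm pulls ratios of dim probes towards 0. With an offset of 10 and nothing else changed, the mean log2 ratio was −1.51 for *Trhr*, −1.44 for *Ptgdr*, −0.91 for *Trh* and −1.01 for *Vgf*. With Agilent's processed signals, which differ in background method and dye normalization too, it was −2.07, −2.52, −1.22 and −1.37, so that *Ptgdr*, whose mutant signal is at background, lay below *Trhr*. The authors' value table gave −2.03, −1.75, −1.20 and −1.38 for the same genes. *Crhr1* lay between 1.01 and 1.15 over the settings tried, and the sign of each called gene was the same in all of them.

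**Figure D5:**
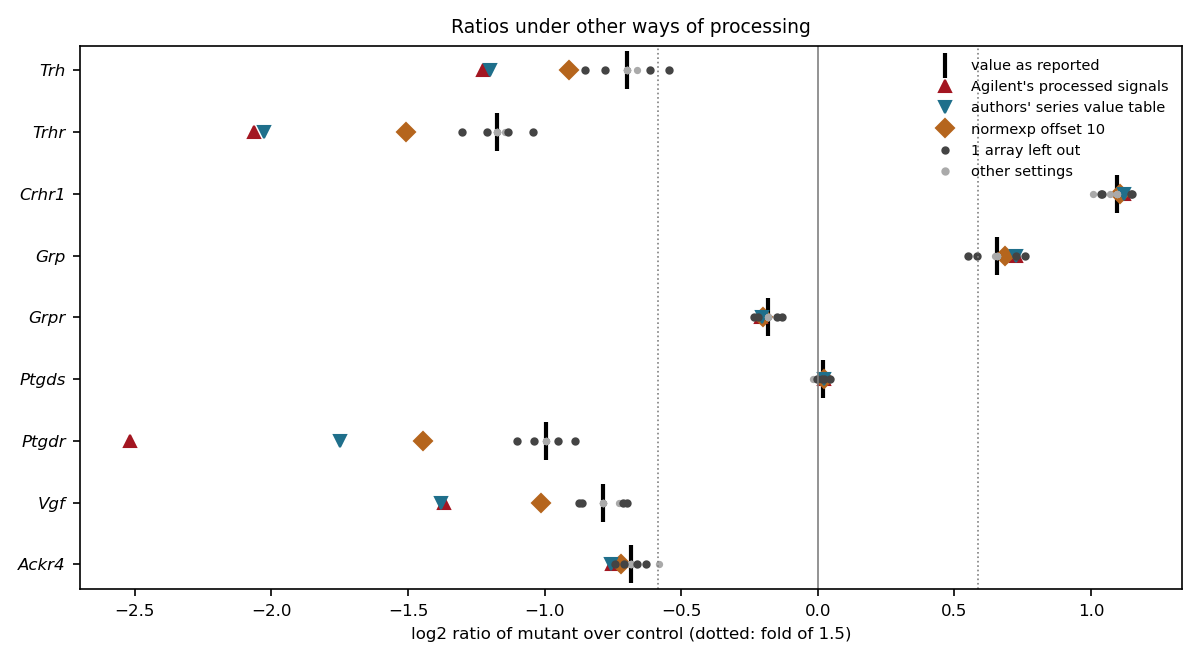
Mean log2 ratio of mutant over control (horizontal axis) of the 9 genes that passed the filter, as reported and under each other way of processing. *Trhr* ran from −2.07 to −1.04 and *Ptgdr* from −2.52 to −0.89, whereas *Crhr1* stayed between 1.01 and 1.15 and *Ptgds* between −0.016 and 0.045.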

How the data were processed

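The authors hybridised the 8 pools to 4 two-colour arrays, scanned them and deposited one Feature Extraction file for each (Agilent software, version 10.7.3.1 per the labels). Its header names another array design than the methods, with each probe in 4 spots. Probe names, symbols and mm9 coordinates are those of these files. The deposited intensity columns give mean brightness and median local background per spot and Agilent's processed signal. The deposited log ratios and their p-values are the authors' own comparison and were not used. The deposited series value table has 1 score for each probe and array, read here as a signed fold of mutant over control. Its columns have a median of 1, it correlated with the ratios here at r between 0.882 and 0.913 over probes, and its normalization and centring stay unknown.

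The normexp method of limma (offset 50) corrected the background, ratios were normalized by loess, flagged spots (8.29% to 8.56%) were left out and the other spots of a probe averaged. A probe with at least 50% of its spots well above background was taken as such, and was tested if this held in 4 of 8 measurements, with the brightest probe standing for its gene (21042 of 29924 names). Levels come from separate channels (loess, Aquantile). limma 3.58.1 in R 4.3.3 fitted genotype and dye, with 2 residual and 5.65 prior degrees of freedom, and the sex by genotype interaction, with Benjamini-Hochberg adjustment over all genes. Genes were called at an adjusted p below 0.05 and a fold of at least 1.5. The scripts were tested on simulated data.

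The 10 genes and the lists were chosen with earlier results of these data known. Named besides them were *Tbx2*, *Sox2* and *Esr1*, listed genes that were called (at most 6 a list), and the 3 nearest genes of 4 members, and other listed genes and markers were named after their values were seen. The alternatives were processed signals, an offset of 10, median centring, other filters and probe choices, the value table, a fit lacking the dye term, channels fitted separately (the array as a block or not), and each array left out. The sources used here do not say how litters were spread over the pools, so p-values measure only the spread between these pools.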

Additional observations from a re-analysis of the deposited data

How the results depend on the processing

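The counts of all genes called, 28 higher and 65 lower, were 52 and 117 with Agilent's processed signals, and the value table called 99 lower. The 8 listed genes became 16 with processed signals, 15 with the value table and 13 with an offset of 10. With 1 array left out, the counts were 27 to 34 higher, 61 to 69 lower and 5 to 11 listed. The sex difference in ratio, with 0 genes, had 19 with median centring, none of them among the genes described. The sex difference in level, with 13 genes, had 4 under the filter of all 8 measurements and 31 without the random block. The cause of these moves was not tested. With the array as a replicate block on separate channels the counts were 28, 65 and 8, as reported. Without the block (unpaired) they were 23, 53 and 8, and *Grp* and *Vgf* were not called.

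The calls of the genes described follow from how they were chosen, and *Ptgdr* could not be tested under the filter of all 8 measurements. *Trh* was not called with the value table or without array 3, *Grp* not without a dye term or without array 2 or array 3, and *Ackr4* not as a mean over its probes (−0.58). Dimness limits the ratios of *Trh*, *Trhr*, *Ptgdr* and *Vgf*, whose sizes were larger with an offset of 10, processed signals and the value table.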
